A study of Mus musculus with 9 samples.

Results

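S100 proteins are small EF-hand proteins, most of them calcium sensors. Across sorted tumour cells of 2 mouse models, 8 of their genes were followed here: S100a1, S100a4, S100a6, S100a10, S100a11, S100a13, S100a14 and S100a16. They are the rows in the deposited table that carry these symbols, of 23799 genes in all, and leave out the neutrophil proteins S100a8 and S100a9. All 8 passed the filter for testing (at least 1 RPKM, a read count divided by gene length and by a total for the library, in at least 2 of the 9 libraries), as did 12832 genes in all. The breast cancer (BC) groups were GFP-sorted cells derived from 4T1-eGFP, a fluorescent form of the 4T1 mouse mammary tumour line, taken at 28 days: BC primary tumours 1 and 5 and BC lung metastases 4 and 6. The pancreatic ductal adenocarcinoma (PDAC) groups were YFP-sorted cells: PDAC primary tumours 1 and 5, PDAC liver metastases 1 and 5 and the single PDAC lung metastasis 1. All PDAC mice carried p48-Cre, p53F/+ and ROSA-LSL-YFP among their alleles, so that a pancreatic Cre switches on the YFP label. Those of number 1 also carried SIRT6F/F and were 25.67 weeks old, while those of number 5 lacked SIRT6F/F and were 28.95 weeks old. Number, age and the SIRT6 allele thus cannot be told apart. Each number was taken as 1 mouse. The labels describe both models as orthotopic. All BC libraries come from 1 cell line, and the labels do not say that those of a group came from separate animals, so p-values measure only the spread between these libraries, which may be technical.

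On binding calcium, the dimers of most, but not all, S100 proteins expose a hydrophobic surface that grips a target protein. The targets differ between family members. S100a4 binds non-muscle myosin heavy chain and is known as a metastasis-associated protein, S100a10 forms a heterotetramer with annexin A2 at the plasma membrane, and S100a11 binds annexin A1. S100a6 binds Cacybp, S100a13 takes part in the release of Fgf1, S100a1 is best known from heart muscle, and S100a14 is a protein of epithelia. Most S100 genes stand side by side on mouse chromosome 3, and in the order of protein-coding genes there S100a1, S100a13, S100a14 and S100a16 came first, S100a4 and S100a6 followed among other S100 genes, and S100a11 and S100a10 were neighbours farther along.

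The libraries differed in makeup and in depth. Estimated reads on genes ran from 21258936 to 127813901, and BC lung metastasis 6, PDAC primary 5 and PDAC lung metastasis 1 had the fewest genes above 0, at 10938, 10410 and 9530, against 12144 to 20478 in the other libraries. The summed level of 10 epithelial markers was 2960 to 5830 RPKM in the BC libraries, 2270 and 17200 RPKM in PDAC primary tumours 1 and 5, 6710 and 327 RPKM in PDAC liver metastases 1 and 5, and for the single lung metastasis of PDAC 175 RPKM. Cdh1, the epithelial cadherin, was listed at 0 in BC lung metastasis 6 and in the PDAC lung metastasis. Both of these libraries had few genes above 0, but in the epithelial list they were otherwise unlike. In BC lung metastasis 6, which had the highest epithelial sum of BC (5830 RPKM), 8 of the 10 markers reached 1 RPKM, against 5 in the PDAC lung metastasis. The macrophage and monocyte list summed to 478 to 770 RPKM in BC against 1590 to 20900 RPKM in PDAC, the neutrophil list to 28.6 to 2530 RPKM against 367 to 218000 RPKM, with the highest value in PDAC liver metastasis 5, and the red cell list to 23.1 to 584 RPKM against 276 to 360000 RPKM. The lung epithelium list summed to 36200 RPKM in the PDAC lung metastasis and to at most 482 RPKM in the other libraries. In such bulk samples, fewer cells of a type and less RNA per cell cannot be told apart.

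S100a6 and S100a11 were the most abundant members and ranked first and second among the 8 in 9 of 9 libraries. S100a6 stood at 1950 and 1610 RPKM in BC primary tumours 1 and 5, in BC lung metastases 4 and 6 at 2020 and 5790 RPKM, at 1370 and 3210 RPKM in PDAC primary tumours 1 and 5, at 4520 and 2030 RPKM in PDAC liver metastases 1 and 5, and for the single lung metastasis of PDAC at 1030 RPKM. S100a11 stood, in the same order, at 1830 and 808 RPKM, 1730 and 5050 RPKM, 1260 and 2860 RPKM, 3600 and 4370 RPKM, and 1400 RPKM. Both genes were high in both models, with BC lung metastasis 6 the highest library for each, and S100a6 was above S100a11 in 7 of 9 libraries. S100a6 ranked between 8 and 68 among all 23799 genes, and S100a11 between 9 and 60. The summed level of all 8 members was 0.378 to 2.97% of the RPKM of a library, lowest in the PDAC lung metastasis and highest in BC lung metastasis 6.

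The promoters of S100a6 and S100a11 are shown as those of the most abundant members, and that of S100a4 because it was the member called between the models. For each, the 250 bases before the annotated start were taken from RefSeq (GRCm38.p6, plus strand), at chr3:90612644-90612893 for S100a6, chr3:93520246-93520495 for S100a11 and chr3:90603520-90603769 for S100a4. The deposited values used another build, mm9. RefSeq entries matched 6 of the 8 members. Capitals mark the 3 searched motifs, each read on both strands. The TATA box was searched as TATAAA. The letters of the AP-1 site were TGAGTCA. For the GC box the search used GGGCGG, and no match overlapped another.
S100a6: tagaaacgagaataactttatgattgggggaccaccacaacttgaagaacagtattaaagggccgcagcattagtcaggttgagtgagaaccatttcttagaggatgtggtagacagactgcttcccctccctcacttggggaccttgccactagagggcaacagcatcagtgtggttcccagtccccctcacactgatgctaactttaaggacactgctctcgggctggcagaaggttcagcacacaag
S100a11: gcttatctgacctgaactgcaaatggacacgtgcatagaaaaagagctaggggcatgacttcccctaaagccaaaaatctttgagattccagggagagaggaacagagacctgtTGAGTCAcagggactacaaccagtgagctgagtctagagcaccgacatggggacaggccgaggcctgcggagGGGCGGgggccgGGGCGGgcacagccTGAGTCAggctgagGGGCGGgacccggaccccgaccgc
S100a4: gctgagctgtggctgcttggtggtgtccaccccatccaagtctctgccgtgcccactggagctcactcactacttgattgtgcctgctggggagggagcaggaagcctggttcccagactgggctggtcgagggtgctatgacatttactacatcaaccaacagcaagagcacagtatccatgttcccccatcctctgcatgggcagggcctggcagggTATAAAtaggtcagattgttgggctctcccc
The S100a11 window held 2 AP-1 matches, at -136 and -38 from the start, and 3 GC boxes. The S100a6 window held none of the motifs, and the S100a4 window held the TATA box at -31. Over all 32851 promoter windows of this length, the TATA box was found in 12.4%, the AP-1 letters in 4.46% and the GC box in 32.7%. A match describes the letters only.

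**Figure D1:**
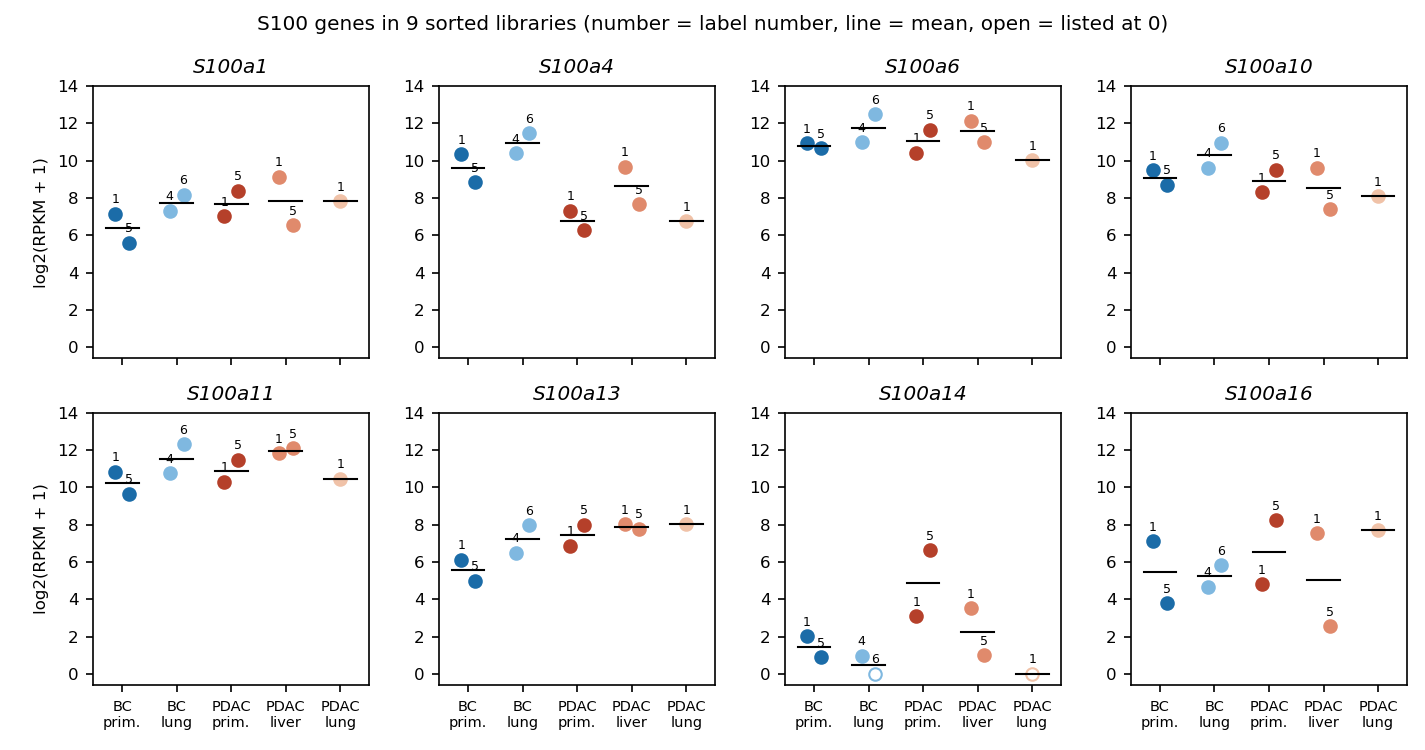
Level of each of the 8 S100 genes in each of the 9 libraries (y axis, log2(RPKM + 1)) by tumour model and site (x axis), with 1 numbered point per library, a line at the group mean of the log2 values and open points for genes listed at 0. S100a6 and S100a11 lie highest in every group, S100a4 is at 457 to 2820 RPKM in BC and 75.8 to 810 RPKM in PDAC, and S100a14 is listed at 0 in BC lung metastasis 6 and the PDAC lung metastasis.

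S100a4 was lower in PDAC than in BC. It stood at 1300 and 457 RPKM in BC primary tumours 1 and 5 and in BC lung metastases 4 and 6 at 1360 and 2820 RPKM. In PDAC it stood at 158 and 75.8 RPKM in primary tumours 1 and 5, at 810 and 202 RPKM in liver metastases 1 and 5 and at 107 RPKM in the lung metastasis. Every BC library was above every PDAC library except PDAC liver metastasis 1, whose 810 RPKM passed the 457 RPKM of BC primary 5. The group means were 2091 ± 1034 RPKM (SD, n = 2) in BC lung metastasis, 876.4 ± 593.1 RPKM (SD, n = 2) in BC primary, 506.3 ± 430 RPKM (SD, n = 2) in PDAC liver metastasis, 117.1 ± 58.41 RPKM (SD, n = 2) in PDAC primary, and for the single lung metastasis of PDAC 107.1 RPKM. In this order the libraries of BC lung metastasis and BC primary did not overlap (1360 against 1300 RPKM at the nearest), nor did those of PDAC liver metastasis and PDAC primary (202 against 158 RPKM), while the other neighbours overlapped. Neither of these gaps passed the test between sites given further on.

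Over both sites S100a4 was 7.25-fold lower in PDAC than in BC on the log2(RPKM + 1) scale, a difference of -2.86 ± 0.57 (SE; 95% interval -4.10 to -1.62; 5 against 4 libraries; limma, adjusted p = 0.01951). It was the 1 member of 8 called in this comparison, in which 2.97% of all genes tested were called in either direction and 1.84% as lower in PDAC. Between primary tumours alone the difference was -2.80 ± 0.80 and the libraries did not overlap, as for 31.5% of all genes in that direction, but the difference did not pass (adjusted p = 0.2211). The 5 PDAC libraries were taken to come from 2 mice, by their numbers, and entered as independent. With the PDAC libraries averaged by mouse the difference was -2.82 ± 0.70 (limma adjusted p = 0.03765), in a fit that called 10% of all genes. That fit had no term for site, and the 2 averages counted like single BC libraries. With a replicate block as a correlation within mouse, estimated at -0.218, the difference was -2.81 ± 0.51 (limma adjusted p = 0.006918), with 5.67% of all genes called. A negative correlation does not widen the error for shared mice. The SE was 0.51 against 0.57 with independent libraries, so this fit is not a stricter test. Over 17 alternative settings the difference over both sites ran from -3.73 to -2.01 and the limma adjusted p from 0.001301 to 0.111. The call was lost with no filter on low values (adjusted p = 0.111), without both the trend and the robust moderation (0.05802), without the 3 libraries with the fewest genes (-2.01, 0.1039), without BC primary 1 (-2.60, 0.06064) and without BC lung metastasis 6 (-2.62, 0.06223).

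The ratio of S100a4 to S100a6, both per length in the same library, was 0.284 to 0.674 in the 4 BC libraries and 0.0236 to 0.179 in the 5 PDAC libraries. The ratio restates the S100a4 difference from the same values and is no further test of it. S100a4 is known to be expressed by macrophages and fibroblasts as well as by tumour cells. The macrophage list summed to 478 to 770 RPKM in BC and 1590 to 20900 RPKM in PDAC, while its mean log2 level was 3.63 to 4.97 in BC and 4.92 to 8.56 in PDAC, with an overlap at PDAC primary 5. The fibroblast list of 10 genes summed to 20.9 to 79.6 RPKM in BC, with 0 to 3 genes at 0, and to 11.8 to 103 RPKM in PDAC, with 1 to 8 genes at 0. The mean log2 level of the fibroblast list was 1.16 to 2.36 in BC and 0.48 to 1.22 in PDAC. In the PDAC lung metastasis 8 of the 10 genes were at 0. Its sum of 103 RPKM came almost wholly from Dcn, the fibroblast proteoglycan decorin, at 103 RPKM. The part of these cells in the S100a4 difference was not tested. Of the 584 exonic bases of S100a4 in the annotation used for lengths, 302 (51.7%) are shared with the predicted gene Gm42674 on the same strand. Gm42674 is not among the genes of the deposited values. Whether the overlap changed the reads given to S100a4 was not tested.

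The other 7 members did not pass between PDAC and BC over both sites (limma). On the log2 scale S100a13 differed by 1.24 ± 0.50 (adjusted p = 0.2013), S100a14 by 2.10 ± 1.00 (0.2652) and S100a10 by -1.12 ± 0.55 (0.2775). S100a16 differed by 0.87 ± 1.11 (0.6997), S100a1 by 0.65 ± 0.60 (0.5712), S100a11 by 0.25 ± 0.46 (0.8029) and S100a6 by -0.27 ± 0.47 (0.7902). With quantile scaling S100a10 also passed, at -1.86 (adjusted p = 0.02909). Between the primary tumours of the models, 0 of 8 members were called, against 0.0312% of all genes, and 3 of 8 had an unadjusted p under 0.05, against 13.2%. In that comparison S100a13 (1.88 ± 0.73, adjusted p = 0.322) and S100a14 (3.40 ± 1.39, adjusted p = 0.3375) were higher in both PDAC libraries than in either BC library, a pattern shown by 15.7% of all genes. Without PDAC primary 1, S100a14 passed there (limma adjusted p = 0.04509), as did 6.54% of all genes tested in that fit.

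S100a10 and its partner annexin A2 were both abundant. S100a10 stood at 711 and 417 RPKM in BC primary tumours 1 and 5, in BC lung metastases 4 and 6 at 780 and 2000 RPKM, at 319 and 730 RPKM in PDAC primary tumours 1 and 5, at 788 and 168 RPKM in PDAC liver metastases 1 and 5, and for the single lung metastasis of PDAC at 271 RPKM. Anxa2 stood, in the same order, at 673 and 370 RPKM, 852 and 1150 RPKM, 579 and 1230 RPKM, 1520 and 704 RPKM, and 194 RPKM. The ratio of S100a10 to Anxa2 was 0.916 to 1.74 in the 4 BC libraries and 0.239 to 0.595 in the PDAC libraries other than the lung metastasis, where it was 1.40. Ahnak, a very large scaffold protein that binds this complex, was low per length, at 3.47 to 24.5 RPKM.

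The complex is known as a cell-surface site of plasmin formation. Of 19 S100 partners tested over both sites 2 were called, Plau and Plaur, where 2.97% of all genes were, and Plat, which encodes the other plasminogen activator on the list, did not pass (-0.53 ± 1.04, limma adjusted p = 0.8133). Plau, which encodes urokinase, stood at 19.6 and 19.5 RPKM in BC primary tumours 1 and 5, in BC lung metastases 4 and 6 at 9.62 and 2.99 RPKM, and at 0 to 0.364 RPKM in the 5 PDAC libraries. It was lower in PDAC over both sites by limma (-3.34 ± 0.67, adjusted p = 0.01895). Plaur, which encodes the urokinase receptor, stood at 105 to 328 RPKM in BC, at 293 and 1100 RPKM in PDAC primary tumours 1 and 5, at 892 and 2210 RPKM in PDAC liver metastases 1 and 5, and for the single lung metastasis of PDAC at 2110 RPKM. It was higher in PDAC (2.52 ± 0.55, limma adjusted p = 0.02695), and only PDAC primary 1 lay within the BC range. Myeloid cells are known to express Plaur, and the macrophage and neutrophil sums given above were also higher in most PDAC libraries. The part of these cells was not tested. The Plau call was lost without BC primary 1, BC primary 5, BC lung metastasis 4 or PDAC primary 1 (adjusted p = 0.06153, 0.06126, 0.07762 and 0.06225). The Plaur call was lost without BC primary 5, BC lung metastasis 4, BC lung metastasis 6, PDAC liver metastasis 5 or the PDAC lung metastasis (0.07793, 0.1162, 0.06846, 0.06628 and 0.06344), without the 3 libraries with the fewest genes (0.1414), with no filter (0.1351) and without both trend and robust moderation (0.08286).

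S100a1 and S100a13 start from opposite strands of 1 short interval. S100a1 stood at 142 and 47.2 RPKM in BC primary tumours 1 and 5, in BC lung metastases 4 and 6 at 159 and 286 RPKM, at 128 and 332 RPKM in PDAC primary tumours 1 and 5, at 561 and 91.8 RPKM in PDAC liver metastases 1 and 5, and for the single lung metastasis of PDAC at 224 RPKM. S100a13 stood, in the same order, at 68.7 and 30.7 RPKM, 89.2 and 249 RPKM, 115 and 255 RPKM, 256 and 218 RPKM, and 257 RPKM. S100a1 was the higher of the pair in 7 of 9 libraries, and BC primary 5 was the lowest library for both. Their log2 levels had a Pearson r of 0.77 over the 9 libraries (0.50 without the 2 libraries farthest from the median). This r was not particular to the pair. S100a1 had 0.77 with S100a16 (0.77 without 2 libraries), and S100a13 had 0.74 with S100a11 (0.73), and neither S100a16 nor S100a11 starts from this interval. The 104 bases between their annotated starts are shown because both genes are read from them. They lie at chr3:90514331-90514434 (GRCm38.p6, RefSeq) and are printed on the plus strand, on which S100a13 is read, while S100a1 is read from the other strand.
S100a1-S100a13 interval: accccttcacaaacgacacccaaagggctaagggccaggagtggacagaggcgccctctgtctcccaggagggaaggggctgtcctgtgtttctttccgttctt
The interval held no match to any of the 3 motifs on either strand.

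S100a14 was the least abundant member, and S100a14 and S100a16 varied most between the libraries of a PDAC group. S100a14 stood at 3.04 and 0.857 RPKM in BC primary tumours 1 and 5, in BC lung metastases 4 and 6 at 0.959 and 0 RPKM, at 7.43 and 97.9 RPKM in PDAC primary tumours 1 and 5 and at 10.5 and 1.01 RPKM in PDAC liver metastases 1 and 5, and was listed at 0 in the PDAC lung metastasis. It was the lowest member in 8 of 9 libraries. S100a16 stood at 138 and 12.8 RPKM in BC primary tumours, 24.3 and 55.1 RPKM in BC lung metastases, 27.2 and 297 RPKM in PDAC primary tumours, 185 and 4.93 RPKM in PDAC liver metastases, and for the single lung metastasis of PDAC at 206 RPKM. The higher library of a PDAC pair exceeded the lower by 10.4 to 37.4 times for these 2 genes, against 1.18 to 6.11 times for the other 6 members. PDAC primary 5, the library with the highest sum of epithelial markers (17200 RPKM), was also the highest for both genes. PDAC liver metastasis 5, with an epithelial sum of 327 RPKM, had S100a14 at 1.01 RPKM and S100a16 at 4.93 RPKM, whereas the PDAC lung metastasis, with 175 RPKM, had S100a16 at 206 RPKM. The part of the epithelial share in these values was not tested.

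**Figure D2:**
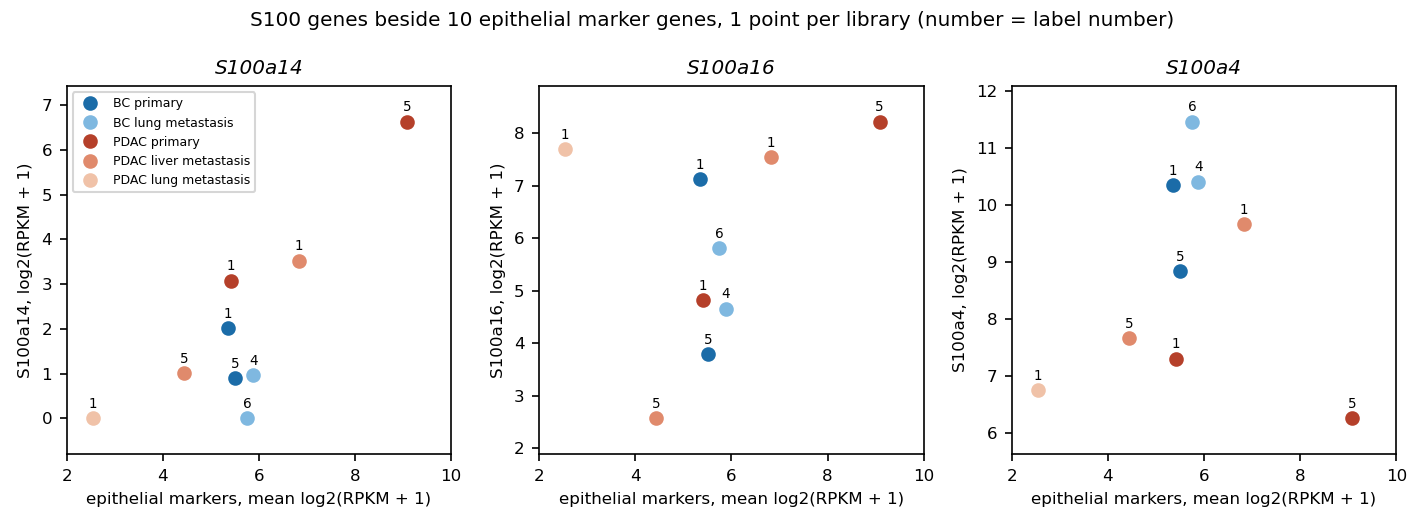
Level of S100a14, S100a16 and S100a4 (log2(RPKM + 1)) against the mean log2 level of 10 epithelial markers, with 1 numbered point per library, coloured by group. PDAC primary 5, at a mean epithelial level of 9.08, is the highest point for S100a14 and S100a16 and the lowest for S100a4, and the PDAC lung metastasis, at 2.54, has S100a14 at 0 and S100a16 at 206 RPKM.

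In BC, lung metastases were compared with primary tumours. The difference was positive for 6 of 8 members, S100a1 (1.37 ± 0.93), S100a4 (1.35 ± 0.80), S100a6 (0.95 ± 0.65), S100a10 (1.20 ± 0.81), S100a11 (1.28 ± 0.65) and S100a13 (1.68 ± 0.73), and none passed. With quantile scaling S100a6 turned to -0.08. S100a14 (-0.97 ± 1.39) and S100a16 (-0.21 ± 1.67) were the others. In this comparison limma called 0 of 8 members and 0 of 12832 genes (0%). At an unadjusted p under 0.05 stood 1 member, S100a13 (adjusted p = 0.9741), and 2.07% of all genes. The median difference was 1.24 over the members and -0.29 over all genes, of which 35.6% were positive. The median of the members was 0.51 without BC lung metastasis 6, 0.64 without BC primary 5, 0.43 with quantile scaling and 0.76 when the libraries were rescaled to a common sum without haemoglobin, immunoglobulin, S100a8 and S100a9. It rose to 1.72 without BC primary 1 and to 1.83 without BC lung metastasis 4. For 5 members (S100a1, S100a4, S100a6, S100a10 and S100a13) both metastases exceeded both primary tumours, as they did for 15.8% of all genes. Each of the 5 was highest in BC lung metastasis 6, whereas BC lung metastasis 4 lay near BC primary 1, for S100a4 with 1360 against 1300 RPKM and for S100a6 with 2020 against 1950 RPKM.

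In PDAC, the liver metastases and primary tumours gave a mixed picture. S100a4 was higher in both liver metastases than in either primary tumour (1.88 ± 0.80, limma adjusted p = 0.7552), as was S100a11 (1.06 ± 0.65, adjusted p = 0.8615), a pattern shown by 15.4% of all genes. The other differences were 0.53 for S100a6, 0.46 for S100a13, 0.14 for S100a1, -0.41 for S100a10, -1.47 for S100a16 and -2.59 ± 1.39 for S100a14. In this comparison 0 of 8 members were called, against 0.00779% of all genes, and 1 member (S100a4) against 6.4% of all genes had an unadjusted p under 0.05. The median was 0.30 over the members and 0.08 over all genes, and that of the members turned to -0.13 with quantile scaling and to -0.07 when the libraries were rescaled. It was -0.33 without PDAC primary 1, -0.60 without PDAC liver metastasis 1, 0.92 without PDAC primary 5 and 0.97 without PDAC liver metastasis 5. The macrophage sum was 16000 and 18300 RPKM in the liver metastases and 4520 and 1590 RPKM in the primary tumours, and its part in the S100a4 and S100a11 values was not tested.

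For the single PDAC lung metastasis, set against 2 primary tumours and assumed to vary like the other groups, 0 of 8 members were called, against 0.584% of all genes. With the replicate block, which pairs samples by number, taken as the mouse, 0 members and 0 genes in all were called. S100a6 (-1.02 ± 0.80) and S100a10 (-0.83 ± 0.99) were below both primary tumours, as was S100a14, which was listed at 0, and 34.4% of all genes were. S100a13 (0.58 ± 0.90) was above both, as were 23.9% of all genes. Without PDAC primary 1, which leaves 1 library against 1, S100a14 passed (limma adjusted p = 0.02179), as did 12.6% of all genes tested there.

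Over both models, metastasis against primary gave 0 called members, against 0.00779% of all genes. S100a4 differed by 1.29 ± 0.57 (limma adjusted p = 0.8528), S100a14 by -2.26 ± 1.00 (adjusted p = 0.8528), S100a13 by 1.03 ± 0.50, S100a11 by 0.89 ± 0.46, S100a1 by 0.69, S100a6 by 0.44, S100a10 by 0.25 and S100a16 by -0.42. The median was 0.57 over the members and -0.16 over all genes, and that of the members turned to -0.09 with quantile scaling. It was 0.25 to 0.94 with 1 library left out, lowest without BC lung metastasis 6 and highest without PDAC primary 5. Whether the metastasis effect itself differed between models was tested as the PDAC liver effect minus the BC lung effect. For the members it ran from -1.62 (S100a14) to 0.53 (S100a4) and was negative for 7 of 8 (positive for 62.6% of all genes), with a median of -1.22 against 0.53 over all genes. Genes of at most 1000 exonic bases, among them S100a1, S100a4, S100a11 and S100a13, had a median of -0.29 here, and 39.8% of them were positive. With 1 library left out the median of the members ran from -1.93 (without PDAC liver metastasis 1) to 0.08 (without PDAC primary 5), and it turned to 0.31 without the 3 libraries with the fewest genes. Both of these positive medians came with 5 of 8 members positive. Here 0 of 8 members and 0 of 12832 genes (0%) were called by limma, 0 members against 4.13% of all genes had an unadjusted p under 0.05, and the adjusted p values of the members were 0.8743 to 0.9657. The 95% interval for S100a13, for example, was -3.52 to 1.09.

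**Figure D3:**
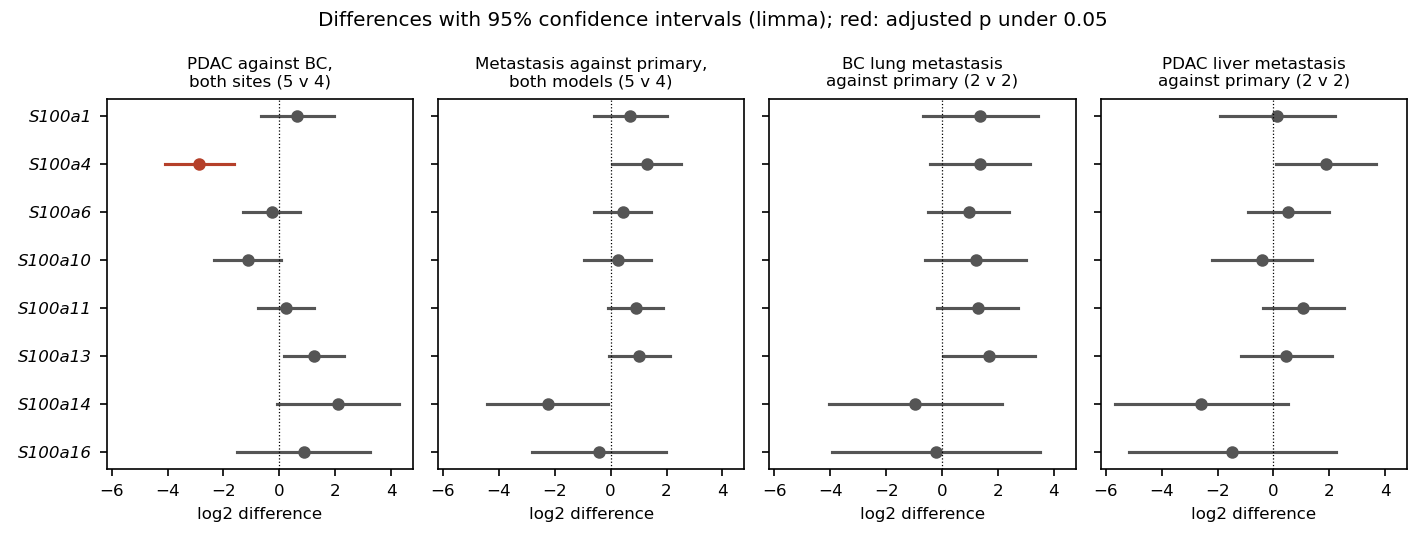
Differences of the 8 members on the log2(RPKM + 1) scale with 95% confidence intervals (bars) from limma, in PDAC against BC, metastasis against primary over both models, BC lung metastasis against primary and PDAC liver metastasis against primary. S100a4 in PDAC against BC over both sites (-2.86, interval -4.10 to -1.62) is the 1 called value, in red.

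S100a1, S100a4, S100a11 and S100a13 are short genes of at most 1000 exonic bases, and short genes as a class were not level between the libraries. Exonic lengths were 511 bases for S100a11, 584 for S100a4, 694 for S100a1, 715 for S100a13, 1212 for S100a10, 1367 for S100a6, 1617 for S100a16 and 1727 for S100a14. Between BC lung metastases and primary tumours the median difference was 0.30 over 1100 genes of at most 1000 bases and -0.41 over 11295 longer genes. For PDAC against BC over both sites the medians were 0.23 and -0.28, and between the primary tumours of the models 0.43 and -0.45. For the PDAC liver effect minus the BC lung effect they were -0.29 and 0.64. Within a library the median of short genes lay 0.17 to 0.20 above that of longer genes on the log2 scale in BC lung metastasis 6, PDAC primary 5 and the PDAC lung metastasis, and 0.67 to 1.90 below it in the other libraries. The part of gene length in the positive member differences of the BC lung metastases, or in the negative ones of the difference of the effects, was not tested.

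**Figure D4:**
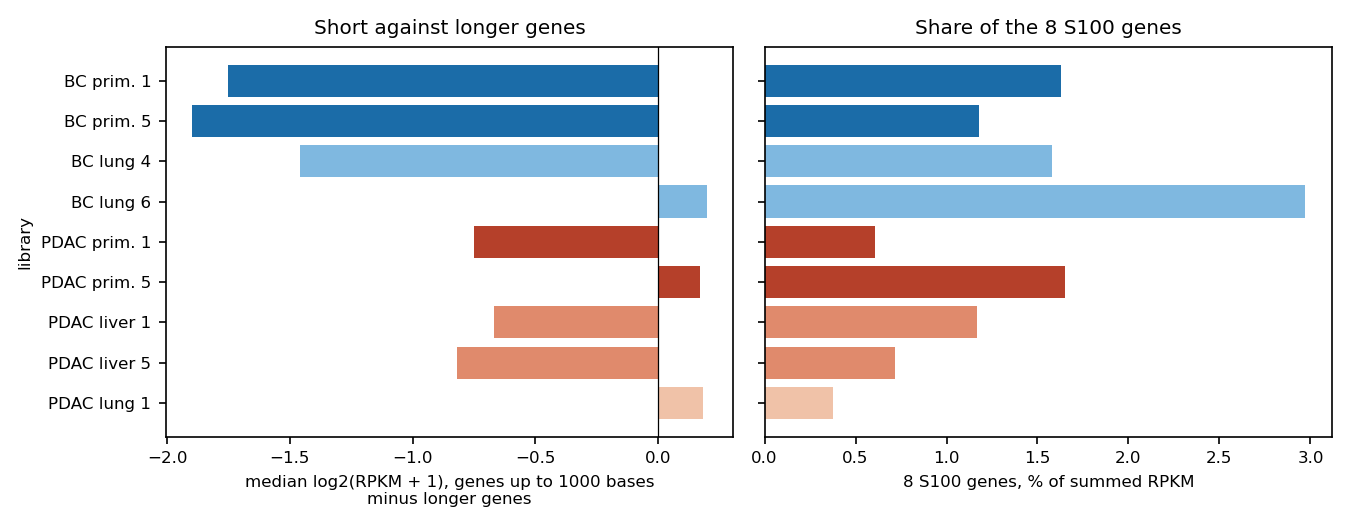
Median log2(RPKM + 1) level of genes of at most 1000 exonic bases minus that of longer genes in each library (left), and the percent of the summed RPKM taken by the 8 S100 genes (right). On the left, the 3 libraries with the fewest genes above 0 are those with a value above 0, at 0.17 to 0.20, and on the right BC lung metastasis 6 has the highest share, 2.97%.

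Among the other S100 genes, 9 were listed, 7 were in the table and 6 were tested, and none was called in any comparison by limma. S100a8 stood at 15 and 13.2 RPKM in BC primary tumours 1 and 5, in BC lung metastases 4 and 6 at 1500 and 939 RPKM, at 609 and 9.28 RPKM in PDAC primary tumours 1 and 5, at 5030 and 101000 RPKM in PDAC liver metastases 1 and 5, and for the single lung metastasis of PDAC at 8510 RPKM. S100a9 followed it, from 2.39 RPKM in PDAC primary 5 to 38000 RPKM in PDAC liver metastasis 5. Over both models the metastasis difference was 7.06 ± 1.06 for S100a8 (adjusted p = 0.05103) and 6.99 ± 1.13 for S100a9 (adjusted p = 0.07901), neither of which passed. Both passed with quantile scaling (0.02465 each), without PDAC primary 1 (0.0113 and 0.01979) and with a correlation within mouse (0.04908 each), and S100a9 also without PDAC primary 5 (0.03412). These neutrophil genes, which lie between members on chromosome 3, thus ranged far more widely than S100a6 or S100a11 in the same libraries. PDAC primary 5 also held S100b at 111 RPKM and S100a5 at 22.7 RPKM.

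Of 24 S100 partners listed, 23 were in the table and 19 were tested. Over both sites, 1 was called higher (Plaur) and 1 lower (Plau) in PDAC, and the median of the list was -0.11 against -0.21 over all genes. In the PDAC lung metastasis against primary tumours 1 was called lower: Sugt1, a co-chaperone that binds S100a6, stood at 43.8 and 72.8 RPKM in the primary tumours and at 0.12 RPKM in the metastasis (-5.68 ± 0.97, limma adjusted p = 0.03779). With the block its adjusted p was 0.1138. The call was also lost with quantile scaling (0.05866), without both trend and robust moderation (0.06372) and without any 1 of the BC libraries (0.1007 to 0.1454). No partner was called in the other 5 comparisons. Anxa1, the partner of S100a11, stood at 264 to 363 RPKM in BC and at 138 and 599 RPKM in PDAC primary tumours, 466 and 3690 RPKM in PDAC liver metastases, and for the single lung metastasis of PDAC at 552 RPKM. Cacybp stood at 155 to 269 RPKM in BC and at 142, 0, 241, 44.0 and 43.7 RPKM in the PDAC libraries in the order used above. Myh9, the myosin target of S100a4, was low per length everywhere, at 2.45 to 10.3 RPKM. Ager, the receptor of several secreted S100 proteins and a gene of lung alveolar cells, was at most 4.66 RPKM except in the PDAC lung metastasis, where it stood at 29.8 RPKM beside the high sum of lung epithelium markers.

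Across the 9 libraries the log2 levels of the members tended to run together, as a description without a test, since all values of a library share its depth and makeup. Of 28 pairs 25 had a positive Pearson r, from -0.44 to 0.78 with a median of 0.41. The closest pair was S100a6 and S100a11 (r = 0.78, Spearman rho = 0.87, and r = 0.59 without the 2 libraries farthest from the median). Nearly as close were S100a6 and S100a10 (0.77, 0.72 and 0.51), S100a1 and S100a13 (0.77, 0.75 and 0.50) and S100a1 and S100a16 (0.77, 0.80 and 0.77). The r of S100a1 and S100a16 was thus the same without the 2 libraries. S100a4 ran closest with S100a10 (r = 0.70, rho = 0.63, and r = 0.88 without 2 libraries) and had its lowest r with S100a14 (-0.44, turning to 0.27 without 2 libraries). S100a10 and S100a11, which are neighbours on the chromosome, had an r of 0.35 (0.69 without 2 libraries).

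**Figure D5:**
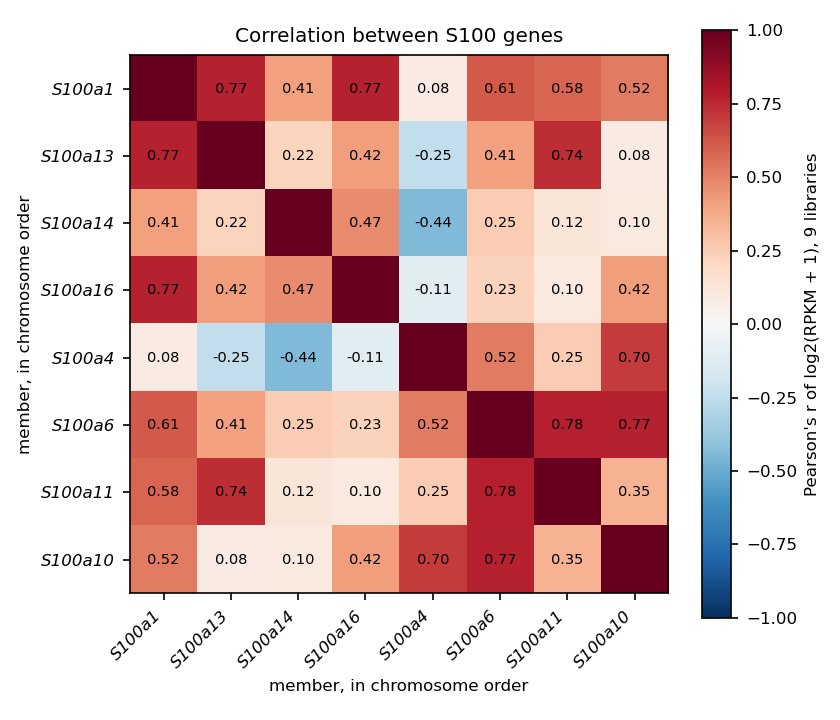
Pearson r of log2(RPKM + 1) between each pair of the 8 members over the 9 libraries, in chromosome order. Values run from -0.44 (S100a4 and S100a14) to 0.78 (S100a6 and S100a11).

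The genes whose levels over the 9 libraries were most like each member, among 6957 tested genes with a mean of at least 5 RPKM, were named by r. They were Vps37d (0.973) and Stbd1 (0.966) for S100a4, Rpl38-ps2 (0.956) and Rpl38 (0.928) for S100a6, and Phpt1 (0.983) and D17Wsu104e (0.981) for S100a10. For S100a13 they were Znhit1 (0.987) and Ndufb11 (0.970), for S100a1 Rer1 (0.931) and Gtf2h5 (0.927), for S100a16 Psmg1 (0.939) and Rras (0.911), and for S100a14 Gm12603 (0.983) and Rpusd2 (0.980). Gm12603 and Rpusd2 peaked in PDAC primary 5 (35.2 and 37.1 RPKM), as S100a14 did, and reached the mean of 5 RPKM only through it. Vps37d and Stbd1 did so through BC lung metastasis 6 (39.7 and 37.5 RPKM), where S100a4 was highest. Each r is the highest of many over 9 libraries and is a description only. The 2 for S100a11 were Gm7665 (0.958) and Gnb2 (0.936). Gm7665 is a near copy of S100a11 itself, with 98.7% identity over 297 bases, and Gm12854 is another, with 99.0% over 297 bases. They averaged 17.8 and 39.1 RPKM, and S100a11-ps averaged 0.866 RPKM. Reads of S100a11 and these copies may have been exchanged, so the values of the copies, and to a small extent that of S100a11, are uncertain.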

How the data were processed

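RNA was sequenced from 9 libraries of sorted mouse tumour cells, made with the SMART-seq v4 kit, which does not mark strand, and Nextera XT, per the labels' protocols. Per the submitters' processing notes the build was mm9. Aligner, counter and annotation are not given in the sources used here. A single table named CPM was deposited by the authors for 23799 genes (166 at 0 throughout). Its low values times GENCODE M21 exonic length were whole multiples of 1 step per library, within 0.02, for 56.6 to 70.8% of values, against 5.29 to 6.32% without length, so the deposited values were read as RPKM. Lengths matched 93.0% of genes.

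Tests used R 4.3.3 with limma 3.58.1 and statmod 1.5.0. Values entered as log2(RPKM + 1), which understates changes of low genes, with trend and robust moderation, for genes reaching 1 RPKM in 2 or more libraries. Of the 7 comparisons, 5 came from 1 fit of 5 group means (4 residual degrees of freedom) and 2 from a fit of model and site (6 residual). P-values are two-sided, with Benjamini-Hochberg adjustment over all 12832 genes, and calls were made below 0.05. Comparisons that share libraries are not independent. Alternatives were a pseudocount of 0.1, no filter, other scalings, no trend or robust moderation, only the groups compared, the replicate block, and leaving out libraries. Added after seeing the data were 2 fits meant to allow for shared mice.

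PDAC libraries of 1 number share age and genotype and are called matched by the submitters, so the numbers were taken as mouse pairs. Over 12832 genes PDAC primary 1 and liver metastasis 1 deviated from their groups with a correlation of -0.165. BC groups share no numbers. Named were all members, 8 listed genes, list genes called in a comparison and the 2 genes most like each member. S100b, S100a5, Plat, Cdh1 and Dcn were named after their values were seen. Members and lists were chosen with earlier results of these data known. One allele of the PDAC genotype label, shared by all PDAC groups, is not reported here.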

Additional observations from a re-analysis of the deposited data

How the results depend on the processing

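Of 999 alternative values for 61 differences, 897 kept direction and side of the threshold, 68 reversed, 24 lost and 10 gained a call, and the cause was not tested. Of 56 member differences, 27 kept their sign in every setting run. For PDAC against BC over both sites the members called numbered 0 with no filter, 2 with quantile scaling, 0 without trend and robust moderation and 0 without the 3 libraries with the fewest genes. Leaving out 1 library gave 0 to 1 called members there, in PDAC lung metastasis against primary and in PDAC against BC primary, and 0 in the other comparisons. Over all genes the calls ran, across the settings, from 153 to 1288 in PDAC against BC over both sites (381 as reported), 0 to 803 between primary tumours (4), 0 to 1032 in PDAC liver metastasis (1), 0 to 1547 in PDAC lung metastasis (75), 0 to 73 in BC lung metastasis (0), 0 to 10 over both models (1) and 0 to 30 in the difference of the effects (0). Rescaling without haemoglobin, immunoglobulin, S100a8 and S100a9 moved the median of all genes by -0.35 in the comparison of primary tumours and by -0.11 to -0.33 in 5 others, and quantile scaling moved it by -0.39 (difference of the effects) to 0.35 (PDAC lung metastasis).

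With quantile scaling, values that turned sign were S100a6 in BC lung metastasis (-0.08), S100a1 (-0.01) and S100a6 (-0.24) in PDAC liver metastasis, S100a4 in PDAC lung metastasis (0.10), S100a6 (-1.16) and S100a11 (-0.42) between primary tumours, S100a6 (-0.39), S100a10 (-0.17) and S100a11 (-0.01) in metastasis over both models, and S100a11 (-0.76) in PDAC against BC. With rescaling they were S100a1 in PDAC liver (-0.23) and lung (-0.15) metastasis, S100a6 between primary tumours (-0.21), S100a10 over both models (-0.16) and S100a11 in PDAC against BC (-0.13). Without the 3 libraries with the fewest genes they were S100a10 (0.19) and S100a16 (0.24) in PDAC liver metastasis, S100a6 (-0.37) and S100a16 (-0.63) between primary tumours, S100a6 (0.96), S100a11 (1.15), S100a13 (0.09) and S100a16 (1.02) in the difference of the effects, and S100a6 (0.11) and S100a16 (-0.12) in PDAC against BC.

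Leaving out 1 library at a time, the ranges that crossed 0 were as follows. In the difference of the effects they were -2.53 to 0.07 for S100a1, -0.47 to 1.53 for S100a4, -1.18 to 0.35 for S100a6, -0.99 to 0.56 for S100a11, -3.39 to 0.16 for S100a14 and -3.74 to 1.23 for S100a16. In PDAC liver metastasis they were -1.16 to 1.44 for S100a1, -0.08 to 1.14 for S100a6, -1.52 to 0.70 for S100a10, -0.11 to 1.03 for S100a13 and -3.95 to 1.02 for S100a16. In PDAC lung metastasis they were -0.57 to 0.80 for S100a1, -0.56 to 0.49 for S100a4, -1.03 to 0.15 for S100a11 and -0.52 to 2.88 for S100a16. Between primary tumours they were -0.37 to 0.85 for S100a6, -0.77 to 0.42 for S100a10 and -0.63 to 2.77 for S100a16. S100a16 ran from -1.88 to 1.45 in BC lung metastasis and from -1.10 to 0.44 over both models, where S100a10 ran from -0.17 to 0.70. In PDAC against BC they were -0.03 to 0.67 for S100a11 and -0.58 to 0.17 for S100a6.

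With the replicate block, which pairs the PDAC samples by number, taken as the mouse, 0 members were called in PDAC liver metastasis and in PDAC lung metastasis. S100a1 in PDAC lung metastasis became -0.19 with it. Between primary tumours the block instead matched BC and PDAC libraries of equal number, which come from different models and are no pairs. There too 0 members were called. Beside Sugt1 the block changed no member's call in these comparisons. As a correlation within mouse, added after seeing the data, the replicate block gave 1 called member in PDAC against BC and 0 over both models, and averaging by mouse gave 1 in PDAC against BC. The crossed pairing of the PDAC liver samples, added after seeing the data, called 46 genes and 0 members. Restricting the fit to the groups compared was not run for PDAC lung metastasis or the comparisons over all libraries. Groups of 1 or 2 libraries limit the precision throughout.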
